A study of Mus musculus with 24 samples.

Results

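Bone-marrow-derived macrophages of the BTBR T+ Itpr3tf/J mouse strain, given lipopolysaccharide (LPS) at both treatment times or plain medium at both, were profiled by ATAC-seq, an assay that reads which stretches of chromatin are open to a transposase. The 8 libraries described here, chosen by their strain and treatment labels, are 4 LPSx2 and 4 media libraries of the 24 in the series. LPSx2 cells received 100 ng/ml LPS for 4 h, were washed, rested about 20 h in plain medium and received LPS again for 24 h. Media cells went through the same washes and times with medium alone. The cells came from male mice at postnatal day 28, were grown from bone marrow for 7 days, and 50000 cells went into each reaction. The same animals, numbers 2, 3, 5 and 8, gave both an LPSx2 and a media library, so a number marks 1 animal throughout, and each BTBR animal was on a different sequencing lane. Where they are set beside these 8, LPSx1 is the BTBR group given medium first and LPS for the last 24 h, and C57BL6/J is the other strain, with 3 LPSx2 and 3 media libraries kept, from animals 1, 4 and 7.

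LPS, a bacterial cell-wall product, is sensed by Tlr4 and its co-receptors, and the signal runs through MyD88, the Irak kinases and Traf6 to NF-kB and to the kinases that activate AP-1. Macrophages that have met LPS once respond differently to a second exposure: many inflammatory genes are induced less, a state known as tolerance, while others stay inducible. Enhancers of macrophages are marked by PU.1, the lineage-defining factor, together with C/EBP, RUNX and AP-1 factors, and signal-dependent factors such as NF-kB add to these sites.

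The deposited lists held 127291, 57055, 17180 and 15628 peaks in the LPSx2 libraries of animals 2, 3, 5 and 8, against 63142, 65300, 16047 and 25903 peaks in their media libraries. After peaks that overlapped within a list were merged into the stronger one, the log2 list length was 0.07 higher in LPSx2 than in media (exact permutation test over 70 arrangements, 2-sided, p = 0.971), so list length did not separate the treatments while it differed widely between animals. Every list was therefore shortened to its strongest peaks, down to the shortest usable list of its lane: 11350, 22039, 16045 and 13957 peaks for animals 2, 3, 5 and 8. This kept 8.92% of the LPSx2 list and 17.98% of the media list of animal 2. A peak's position in its shortened list is given below as a rank value, log2 of the list length plus 1 over the rank: 0 means not in the list, 1 the middle of the list, and each further unit a doubling of the standing. It is a standing among the peaks of the same library, not an amount of open chromatin, and the number of sequenced reads behind it is unknown.

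Of the 18 macrophage marker genes, 3 had a peak in all 8 lists and none lacked one in all 8. Their summed peak number was 48, 86, 18 and 9 in the LPSx2 libraries of animals 2, 3, 5 and 8, against 35, 71, 36 and 26 in media. It was thus higher in LPSx2 for animals 2 and 3 and lower for animals 5 and 8, whose libraries took 13 PCR cycles, against 6 to 8 cycles for animals 2 and 3. T-cell and NK-cell markers, 15 genes, held 3 to 9 peaks in LPSx2 and 4 to 9 in media, with Cd3e, Cd3g, Cd4, Cd8a, Lck, Tcf7 and Ncr1 at 0 in all 8 lists. B-cell markers held 0 to 1 in both groups, with Cd79a, Pax5, Ebf1 and Blk at 0 throughout, and neutrophil markers held 1 to 7 and 3 to 4, with Elane, Ly6g, Retnlg, Cxcr2 and Ngp at 0. Dendritic-cell markers held 0 to 11 peaks in LPSx2 and 4 to 14 in media. Stromal and fibroblast markers held 3 to 5 peaks in LPSx2 and 1 to 2 in media, with Col1a1, Col1a2, Col3a1, Pdgfra, Thy1 and Lum at 0. Erythroid and mast-cell markers held 0 to 1 in both. The part of these differences in the results below was not tested. In bulk samples, fewer cells of a type and less open chromatin per cell cannot be told apart.

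Peaks from 8 regions that stood higher or lower after LPSx2 are shown first. They were picked after their letters were seen, to show what AP-1 and NF-kB matches look like in higher regions and what lower regions without them look like. Among the peaks of all named regions, 12 of 26 higher ones and 1 of 25 lower ones held an AP-1 or NF-kB match, the lower one near Insig1. The share of all tested regions with either match was not counted, and both named sets mix promoter and distal peaks. No result is therefore drawn from these counts, and shares for distal regions alone are given below. Each sequence shown is the full peak in the C57BL/6J reference genome (GRCm38/mm10, plus strand) inside 1 of the 8 regions, read 5′ to 3′, and it is not the BTBR allele. Capitals mark matches on either strand to AP-1 (TGACTCA or TGAGTCA), NF-kB or PU.1 (GAGGAAGT). The higher set are the peaks in an Otoa intron at chr7:121158508-121158708, in an Itga9 intron at chr9:118669842-118670042, upstream of Klf6 at chr13:5837514-5837714, in a Bcl3 intron at chr7:19817511-19817711, upstream of Maml2 at chr9:13296515-13296715 and downstream of the Tiparp start at chr3:65586417-65586617. The lower set are the peaks far upstream of Klf4 at chr4:55741405-55741605 and in a Pde4d intron at chr13:108465846-108466046.
Otoa, higher: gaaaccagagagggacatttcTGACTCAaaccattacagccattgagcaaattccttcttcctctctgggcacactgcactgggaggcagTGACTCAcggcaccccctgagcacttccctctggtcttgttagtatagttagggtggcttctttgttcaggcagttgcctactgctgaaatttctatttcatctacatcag
Itga9, higher: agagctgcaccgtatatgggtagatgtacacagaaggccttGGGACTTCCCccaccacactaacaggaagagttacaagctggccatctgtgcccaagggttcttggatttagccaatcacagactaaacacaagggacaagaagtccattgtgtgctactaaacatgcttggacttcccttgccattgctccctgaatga
Klf6, higher: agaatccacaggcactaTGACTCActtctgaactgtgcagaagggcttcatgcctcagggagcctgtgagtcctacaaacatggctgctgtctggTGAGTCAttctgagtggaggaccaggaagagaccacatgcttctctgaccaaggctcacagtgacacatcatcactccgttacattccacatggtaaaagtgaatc
Bcl3, higher: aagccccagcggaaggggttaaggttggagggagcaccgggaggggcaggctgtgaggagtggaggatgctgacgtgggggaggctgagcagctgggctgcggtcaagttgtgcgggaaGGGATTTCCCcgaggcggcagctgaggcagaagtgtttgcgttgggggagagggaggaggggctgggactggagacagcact
Maml2, higher: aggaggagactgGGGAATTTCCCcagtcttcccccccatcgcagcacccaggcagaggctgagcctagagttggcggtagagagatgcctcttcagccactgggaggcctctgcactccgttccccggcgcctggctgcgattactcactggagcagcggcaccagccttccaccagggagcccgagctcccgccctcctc
Tiparp, higher: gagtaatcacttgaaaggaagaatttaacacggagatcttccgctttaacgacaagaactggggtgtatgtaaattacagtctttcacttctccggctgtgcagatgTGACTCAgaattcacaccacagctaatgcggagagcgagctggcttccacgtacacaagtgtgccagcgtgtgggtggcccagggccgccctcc
Klf4, lower: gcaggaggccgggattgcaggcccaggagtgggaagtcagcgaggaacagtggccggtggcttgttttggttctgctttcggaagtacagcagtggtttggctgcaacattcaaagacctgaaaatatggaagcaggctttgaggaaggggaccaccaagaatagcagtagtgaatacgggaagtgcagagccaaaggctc
Pde4d, lower: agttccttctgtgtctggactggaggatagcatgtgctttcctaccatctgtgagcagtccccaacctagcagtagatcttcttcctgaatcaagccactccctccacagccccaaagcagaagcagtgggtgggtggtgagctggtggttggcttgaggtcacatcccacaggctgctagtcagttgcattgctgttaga
AP-1 matches stand in the Otoa peak and the Klf6 peak, each at 2 places, and in the Tiparp peak. NF-kB matches stand in the Itga9, Bcl3 and Maml2 peaks, the last as 2 overlapping matches. No capitals appear in the Klf4 and Pde4d peaks, which says only that these letters are not in these windows.

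Regions were built by joining overlapping peaks across libraries. LPSx2 was set against media in 25513 regions found in at least 4 libraries of the series. By limma's moderated test with the sequencing lane as a covariate, 332 regions (1.3%) stood higher after LPSx2 and 313 (1.23%) lower at a Benjamini-Hochberg adjusted p under 0.05, and 4844 had an unadjusted p under 0.05. The median difference was 1.84 among the higher regions and -1.51 among the lower ones, against 0 over all regions tested, and the sign was the same in all 4 animals for 252 of the 332 and 261 of the 313. The same libraries chose the regions, so like signs partly follow from the choice and are no replication. The share of all tested regions with 4 like signs was not counted. The numbers of called regions depended on both the shortening of the lists and the covariate: with lists shortened to the shortest of each animal the same fit gave 12 higher and 9 lower, with unshortened lists 14 and 5, and without the lane covariate 22 and 29. Fitted with each animal as a block, lists shortened within an animal gave 359 higher and 233 lower. Leaving out 1 animal in turn gave 529, 80, 74 and 137 higher regions without animals 2, 3, 5 and 8, and 76, 131 and 179 lower regions without animals 3, 5 and 8. Most of the regions named below lost their call in some of these settings: of 62, 55 did so with lists shortened within an animal, 53 with unshortened lists and 45 without the lane covariate.

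Regions that moved lay away from gene starts more often than the regions tested. Of the higher regions 22.3% (74) and of the lower regions 32.6% (102) were within 1 kb of an annotated transcription start site (TSS), against 42.1% of all tested. The median distance to the nearest protein-coding TSS was 29.2 kb for higher and 18.01 kb for lower regions, against 8.74 kb for all tested. As plain detection, 217 regions were in all 4 LPSx2 lists and in no media list, 0.614% of the 35321 regions found in any of the 8, and 127 (0.36%) were in all 4 media lists and no LPSx2 list. Of these, 73 of the 217 and 59 of the 127 also passed the limma test, and 4381 regions (12.4%) were in all 8 lists.

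Among the regions present in every LPSx2 list and absent from every media list, 8 were taken in order of the limma p, and the gene named for each is the one with the nearest protein-coding TSS. No link between region and gene was measured. The strongest by p lay at chr8:24725801-24726047, 95 bp upstream of Adam3, a gene known for its part in sperm migration. Its rank values were 2.34, 2.69, 4.73 and 3.34 in LPSx2 animals 2, 3, 5 and 8, against 0 in all media libraries (difference 3.27, SE 0.48, limma adjusted p = 0.000194). A region at chr14:103012613-103012865, in an intron of a noncoding transcript 30.1 kb upstream of Kctd12, an auxiliary subunit of GABA-B receptors, had 1.82, 3.78, 3.76 and 3.49. The Tgds region, chr14:118109746-118110036, 22.8 kb into the downstream side of the sugar-nucleotide dehydratase gene, had 1.92, 2.39, 5.69 and 3.98 (difference 3.496). It held the highest single standing of the 8, in animal 5.

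Next in that order came a region at chr17:37286729-37287070, 3.41 kb upstream of the olfactory receptor gene Olfr99, with 2.63, 2.47, 2.25 and 4.27 in LPSx2. The Otoa region, chr7:121158426-121158715, in an intron of the inner-ear protein otoancorin, had 1.70, 2.00, 3.26 and 3.90. An intron of Itga9, an integrin subunit, held the region chr9:118669776-118670067 with 2.55, 3.51, 2.88 and 2.15. St6galnac5, a sialyltransferase, had a region 208 kb upstream at chr3:153190080-153190357 with 1.07, 2.00, 2.16 and 3.71, which was in none of the C57BL6/J LPSx2 or media libraries. In an intron of Uck2, a uridine-cytidine kinase, the region chr1:167242071-167242454 had 1.21, 2.92, 3.39 and 3.26. All 8 were at 0 in all 4 media libraries by their selection, and their limma differences ran between 2.23 and 3.496.

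In the opposite direction, 7 of the regions present in every media list and in no LPSx2 list are described. An intron of Ncoa2, a nuclear receptor coactivator, held chr1:13206914-13207192 with media rank values of 1.20, 1.44, 1.84 and 1.37 (difference -1.46, SE 0.23, limma adjusted p = 0.000365); the nearest protein-coding TSS was that of Prdm14. The Tnr region, chr1:159743823-159744108, in an intron of the extracellular matrix protein tenascin-R, had 1.76, 0.73, 1.23 and 1.27 in media. A region 298 kb upstream of Tbc1d5, which acts on the Rab7 GTPase, had 0.80, 1.36, 0.92 and 1.04 at chr17:51477368-51477736. These standings lay around the middle of the media lists.

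Standing in media was higher in some of the others. The distal Klf4 region, chr4:55741391-55741676, 209 kb upstream of this macrophage and stem-cell transcription factor, had 4.52, 4.63, 0.84 and 1.15, so that animals 2 and 3 were far above animals 5 and 8 (difference -2.79). The Pde4d region, chr13:108465807-108466047, in an intron of a phosphodiesterase that breaks down cyclic AMP, had 1.95, 1.52, 1.30 and 0.37. Atp8a1, a phospholipid flippase, had an intronic region at chr5:67815454-67815791 with 2.39, 3.01, 1.38 and 1.37. The last, chr4:131910625-131910977, 10.98 kb upstream of Tmem200b, had 0.98, 1.92, 1.38 and 2.59.

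**Figure D1:**
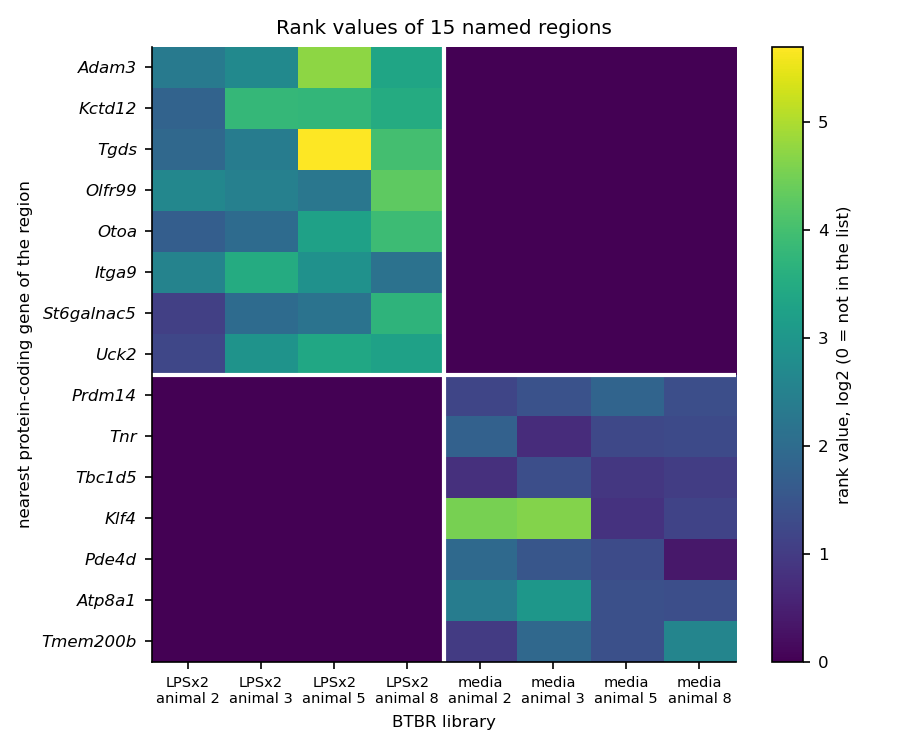
Rank values (colour, log2 scale, 0 for a region not in the list) of 15 regions (rows, named by the nearest protein-coding gene) in the 4 LPSx2 and 4 media libraries (columns, by animal). The upper 8 rows were chosen for presence in all LPSx2 lists and absence from all media lists, and the lower 7 for the reverse, so the empty blocks follow from the choice; within the filled blocks Tgds reached 5.69 in LPSx2 animal 5 and Klf4 4.63 in media animal 3.

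Distal regions that moved differed in the motifs they held. AP-1 matches stood in 38.4% of the 258 higher and 11.8% of the 211 lower regions over 1 kb from a TSS, against 25.4% of all 14775 tested distal regions. NF-kB matches, searched by the factor's consensus, stood in 12.4% of higher and 1.42% of lower regions, against 4.34% of all. The antioxidant response element (ARE, TGACNNNGC), bound by Nfe2l2 and related factors and partly overlapping AP-1 in its letters, stood in 20.9% and 14.7%, against 14.7% of all. For the lineage factors the shares were 10.5% and 13.7% for PU.1, against 13.2%, 27.5% and 30.8% for RUNX (TGTGGT), against 23.05%, and 12.0% and 9.005% for C/EBP (TTGCNNAA), against 16.4%. A match is a match of letters and not a measured binding event.

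**Figure D2:**
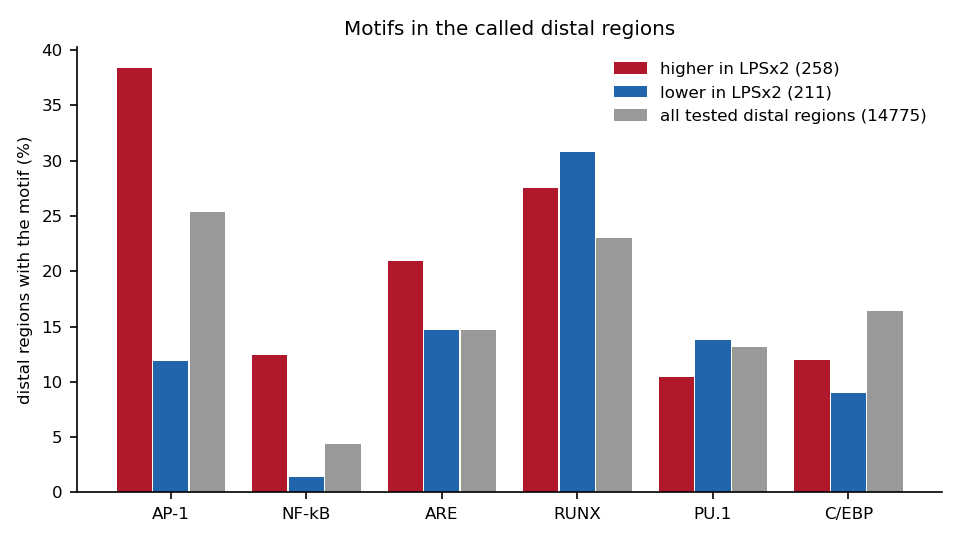
Percent of distal regions whose peak holds each motif (vertical axis), for regions higher in LPSx2 (258), lower in LPSx2 (211) and all tested distal regions (14775). AP-1 stood at 38.4%, 11.8% and 25.4% and NF-kB at 12.4%, 1.42% and 4.34% in that order.

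The same motifs were counted in each whole shortened list, a measure that does not depend on which regions were called. AP-1 was in 26.2%, 23.3%, 25.8% and 26.8% of distal peaks in LPSx2 animals 2, 3, 5 and 8, against 21.3%, 18.6%, 20.2% and 22.3% in media. The groups did not overlap, and AP-1 averaged 25.5% ± 1.52 in LPSx2 and 20.6% ± 1.60 in media (SD, n = 4 each; difference 4.92 percentage points, exact permutation p = 0.0286, the smallest that 4 against 4 allows; 0.152 after Benjamini-Hochberg adjustment over 16 motifs). NF-kB was in 4.86%, 4.27%, 6.45% and 5.91% of LPSx2 peaks, against 3.05%, 2.81%, 3.87% and 4.22% of media peaks (difference 1.88 points, the same exact p). ARE was in 15.4%, 14.9%, 15.2% and 15.8%, against 12.8%, 13.2%, 13.3% and 14.3% (difference 1.94 points, the same exact p). All 3 were higher in LPSx2 without overlap between groups, and none of the 16 motifs passed after adjustment. For NF-kB the lowest LPSx2 value, 4.27%, lay just above the highest media value, 4.22%. With another random order of tied peaks, peaks not collapsed or the stronger 50% of each list, the NF-kB exact permutation p was 0.0571. ARE had the same exact p in the stronger 50%. With lists shortened within each animal the exact p was 0.143 for AP-1 and NF-kB and 0.2 for ARE, and with unshortened lists 0.143 for AP-1, 0.114 for NF-kB and 0.257 for ARE. Permuted within animals, 4 pairs were too few for any motif to reach the threshold.

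Other motifs overlapped between the groups. PU.1 averaged 12.4% ± 1.96 in LPSx2 and 14.8% ± 1.01 in media (SD, n = 4 each; exact permutation p = 0.0857). CTCF, which marks domain boundaries and insulators, was in 0.70%, 1.22%, 3.79% and 3.93% of LPSx2 peaks, against 0.55%, 0.88%, 1.8015% and 1.39% of media peaks. The difference between treatments was widest in animals 5 and 8, the same LPSx2 libraries that held few macrophage-marker peaks. Their LPSx1 libraries had CTCF in 3.18% and 3.36% of distal peaks, and held 18 and 14 macrophage-marker peaks. Promoter peaks, those no more than 1 kb from a TSS, made up 44.5%, 39.3%, 49.0% and 49.2% of the LPSx2 lists, against 45.1%, 42.3%, 63.3% and 66.0% of the media lists (difference -8.69 points, exact permutation p = 0.314). Without animals 5 and 8 that difference was -1.76 points.

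**Figure D3:**
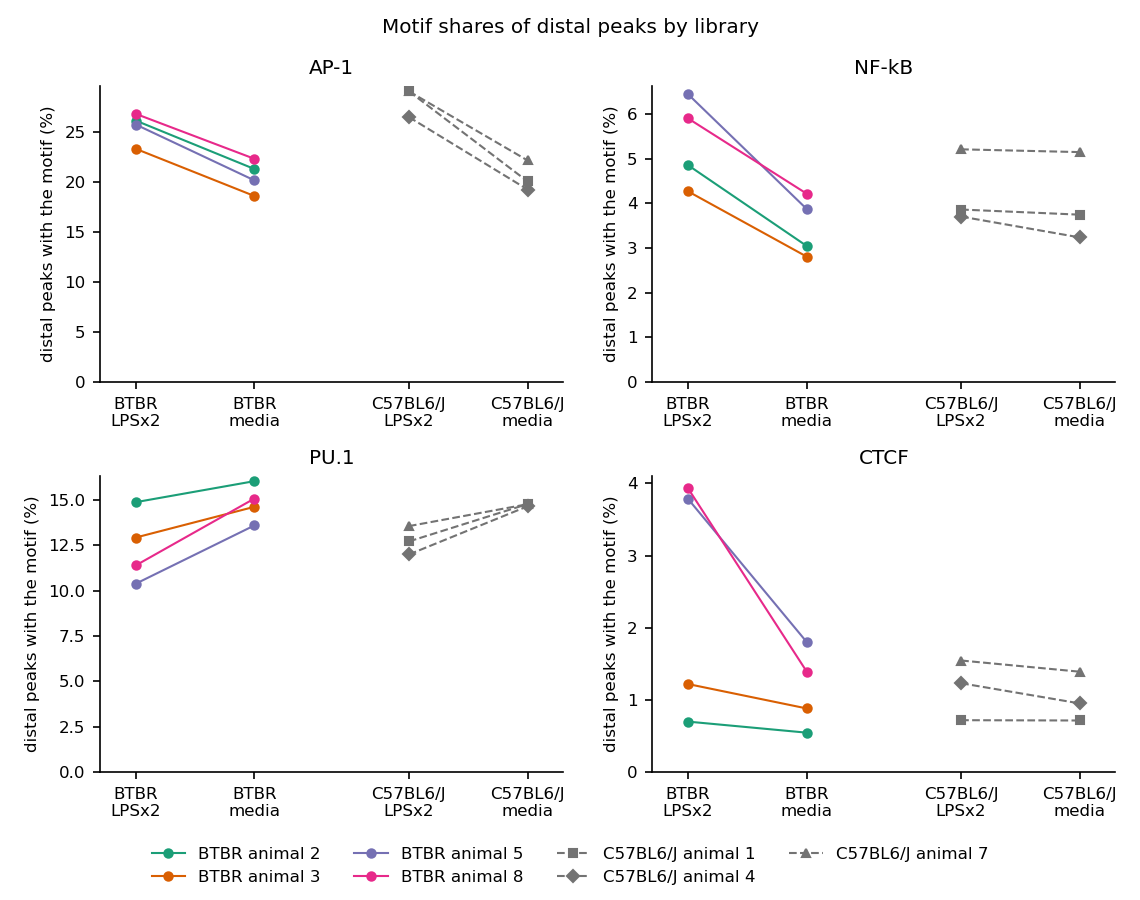
Percent of distal peaks with an AP-1, NF-kB, PU.1 or CTCF match (vertical axes) in each library, with lines joining the LPSx2 and media libraries of 1 animal, BTBR in colour and C57BL6/J in grey. AP-1 and NF-kB were higher in LPSx2 in all 4 BTBR animals, and CTCF reached 3.79% and 3.93% in LPSx2 animals 5 and 8.

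**Figure D4:**
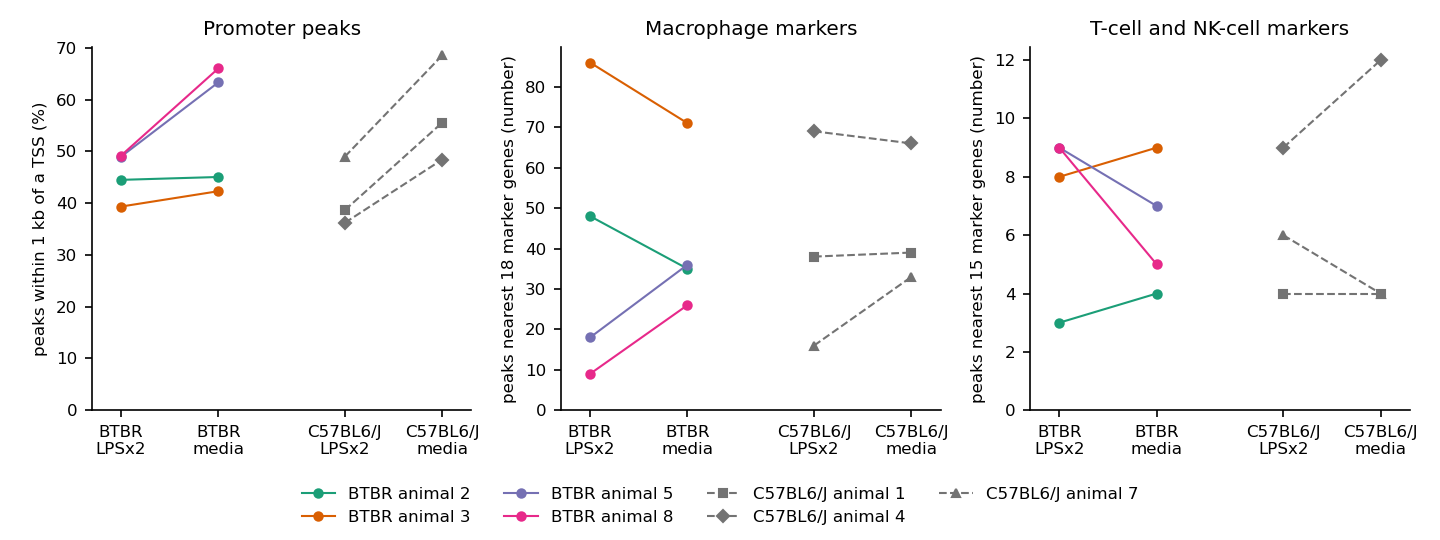
Promoter peaks as a percent of each list, counting peaks up to 1 kb from a TSS (left), and number of peaks nearest to 18 macrophage markers (centre) and to 15 T-cell and NK-cell markers (right) in each library, joined by animal. BTBR animals 5 and 8 had 18 and 9 macrophage-marker peaks in LPSx2, against 36 and 26 in media, while animals 2 and 3 had 48 and 86, against 35 and 71.

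Regions near genes of the LPS response were then read by role. Within 100 kb of a protein-coding TSS, 251 of 22642 regions (1.11%) stood higher and 262 (1.16%) lower, with a median difference of -0.002. Genes of LPS sensing had 2 higher and 1 lower of 51 regions (median 0). An intronic region of Tlr4, the LPS receptor, at chr4:66891628-66891897 had 0, 1.29, 2.25 and 2.62 in LPSx2, against 0 in all media libraries (difference 1.54, limma adjusted p = 0.0467). The promoter of Irak2, a kinase of the MyD88 complex, at chr6:113638266-113638562 had 1.82, 2.69, 2.35 and 1.63, against 0.28, 1.13, 0.05 and 0.93 in media (difference 1.53, limma adjusted p = 0.0368), and the groups did not overlap. A region in an intron of Prr5l, nearest to the start of Traf6, the ubiquitin ligase of the pathway, had 2.76, 3.86, 0 and 1.00 at chr2:101763047-101763459, against 5.63, 5.94, 4.52 and 3.58 in media (difference -3.01, SE 0.57).

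Restraint of Toll-like receptor signalling had 4 higher and 1 lower of 93 regions (4.3% and 1.08%, median 0.11). Within Socs3, the inhibitor of cytokine receptor signalling, chr11:117969150-117969500, 697 bp past the start, had 3.69, 3.86, 3.03 and 2.72 in LPSx2, against 0, 0, 0.34 and 0.25 in media (difference 3.18, SE 0.46, limma adjusted p = 0.000194). Every LPSx2 library was above every media library by more than 2 units. N4bp1, a suppressor of NF-kB activation, had a region 6.48 kb upstream at chr8:86891565-86891902 with 4.92, 5.32, 2.25 and 2.80, against 0.67, 1.77, 0.05 and 0 (difference 3.20). An intronic region of Tnip1, a partner of A20, at chr11:54934274-54934582 had 4.70, 4.30, 1.97 and 1.63, against 1.16, 1.05, 0 and 0 (difference 2.60), and one of Inpp5d, the phosphatase SHIP1, had 2.69, 2.47, 1.11 and 1.51, against 0, 1.77, 0 and 0 (difference 1.501). The single lower region was the 5' part of Tnfaip3, which encodes A20, at chr10:19015168-19015504, with 0 in all LPSx2 libraries, against 0, 0.97, 2.47 and 1.04 in media (difference -1.12, limma adjusted p = 0.0494). With the animal as a block its adjusted p was 0.0621.

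NF-kB subunits and inhibitors had 1 higher and no lower of 46 regions. It lay in an intron of Bcl3, a nuclear IkB protein, at chr7:19817455-19817769, with 2.08, 2.39, 1.46 and 0.27 in LPSx2, against 0 in media (difference 1.55, limma adjusted p = 0.0349). Chemokine genes had no called region among 38. The inflammatory mediators had 1 higher and 2 lower of 61: an intronic region of Ptges, the prostaglandin E synthase, had 1.73, 2.32, 0.47 and 1.27, against 0 in media (difference 1.45). A region 43.7 kb from the start of Ptgs2, the inducible cyclooxygenase, at chr1:150143604-150143915 was at 0 in LPSx2, against 1.56, 2.00, 0.25 and 0.54 in media (difference -1.09). One 3.5 kb upstream of Osm, the cytokine oncostatin M, had 0.20, 0.81, 1.11 and 0.43, against 1.66, 2.16, 2.68 and 2.12 (difference -1.52), without overlap. With the animal as a block, the adjusted p was 0.0599 for Ptges and 0.0577 for Ptgs2.

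Interferon-stimulated genes had 1 higher and 1 lower of 51 regions. An intronic region of Parp14, an ADP-ribosyltransferase, had 2.71, 2.92, 0.86 and 0.57, against 0 in media (difference 1.77). The promoter of Gbp7, a guanylate-binding protein, at chr3:142530135-142530386 had 0.28, 1.21, 0 and 0 in LPSx2, against 3.99, 3.11, 2.47 and 3.65 in media (difference -2.93, SE 0.50, limma adjusted p = 0.000743). Its lowest media library stood above its highest LPSx2 library by more than 1 unit.

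Notch pathway genes had 3 higher and 1 lower of 48 regions (6.25% and 2.08%, median 0.03). A region 1.34 kb upstream of Maml2, a coactivator of Notch, at chr9:13296453-13296741 had 4.14, 3.78, 4.09 and 3.49 in LPSx2, against 0.59, 1.77, 1.46 and 0.03 in media (difference 2.91, SE 0.52, limma adjusted p = 0.00115). The receptor gene Notch2 had an intronic region at chr3:98066535-98066845 with 3.83, 3.58, 3.26 and 2.06, against 0.11, 0.65, 0.05 and 0 (difference 2.97). An intron of Rbpj, the DNA-binding factor of the pathway, had 2.14, 3.14, 0.32 and 2.15, against 0 in media (difference 1.94). The lower one, 73.0 kb upstream of the target gene Hes1, was at 0 in LPSx2, against 0.46, 2.16, 0.92 and 0.71 (difference -1.06). Rbpj and Hes1 had adjusted p of 0.0608 and 0.0589 with the animal as a block.

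A list of myeloid receptor genes, not all of them inhibitory, had no higher and 3 lower of 41 regions (7.32%, median -0.10). All 3 lay at the Cd300 cluster of immunoglobulin-like receptors. An intronic region of Cd300a at chr11:114898069-114898375 had 0.65, 0.57, 0 and 0.57 in LPSx2, against 1.90, 3.01, 2.14 and 1.94 in media (difference -1.802, SE 0.39, limma adjusted p = 0.0088). Near Cd300lb the region chr11:114912919-114913270 had 1.03, 0.89, 0 and 0, against 2.44, 2.41, 1.69 and 2.00 (difference -1.65). Both were without overlap between the groups, and a further region upstream of Cd300a had a difference of -1.04.

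Factors of the macrophage lineage had 1 higher and 2 lower of 102 regions. Upstream of Klf6, a zinc-finger factor that promotes inflammatory genes, chr13:5837413-5837724 had 1.64, 2.62, 1.97 and 1.39, against 0, 0.65, 0.60 and 0.20 (difference 1.54). An intron of Mef2c at chr13:83571993-83572342 had 0, 1.05, 0 and 0 in LPSx2, against 4.36, 4.08, 1.38 and 2.12 in media (difference -2.72, SE 0.49, limma adjusted p = 0.00115). The Klf4 promoter at chr4:55532317-55532827 had 0, 0.57, 0.99 and 1.00, against 0, 2.33, 4.11 and 3.08 (difference -1.74), so animal 2 had no peak there in either library. AP-1 and related factors had 2 lower of 66: the Jund promoter, with 0, 1.21, 1.56 and 0.72, against 0.46, 2.41, 4.11 and 3.82 (difference -1.83), and a region 37.6 kb upstream of Bach1, a repressor of antioxidant genes, with 0, 0.23, 0 and 0, against 1.16, 1.84, 2.30 and 0.98 (difference -1.51).

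Metabolic and redox lists had few called regions. The median difference was 0.08 for glutathione and Nfe2l2 targets and 0.19 for glycolysis, against -0.002 over all regions within 100 kb of a protein-coding TSS. Glutathione and Nfe2l2 target genes had 2 higher of 64 regions, near the cystine transporter gene Slc7a11 (1.07, 2.99, 1.56 and 1.51 in LPSx2, against 0 in media; difference 1.78) and in the copper transporter gene Slc31a2 (3.75, 3.78, 0.74 and 1.75, against 0, 0.43, 0 and 0; difference 2.40). Glycolysis genes had 1 higher of 70 (median 0.19), 2.87 kb upstream of the glucose transporter Slc2a1, with 3.69, 4.08, 1.34 and 2.72, against 0.11, 2.08, 0.76 and 0.65 (difference 2.06). Cyclic AMP and aryl hydrocarbon receptor genes had 1 higher and 1 lower of 36: the region near Tiparp, an ADP-ribosyltransferase, had 1.42, 1.29, 2.06 and 1.51, against 0, 0.05, 0 and 0 (difference 1.56), and the lower one was the Pde4d region above. Cholesterol genes had 1 lower of 46, near Insig1 (difference -1.94), alternative activation genes 1 of 26, the Klf4 promoter again, and DNA methylation and demethylase genes 1 of 41, in an intron of the methyltransferase gene Dnmt3a (difference -1.12). No region was called among antimicrobial genes (31), antigen presentation (14), cell cycle (38) or ribosomal and housekeeping promoters (34, median -0.28). With the animal as a block, adjusted p was 0.0541 for Klf6, 0.0545 for Tiparp and 0.0621 for Insig1.

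Among macrophage markers, 1 of 74 regions was higher and 2 lower. Upstream of the Fc receptor gene Fcgr3, chr1:171081876-171082129 had 0.17, 1.61, 3.11 and 2.44, against 0, 0, 1.00 and 0 (difference 1.58; adjusted p 0.0452, and 0.0514 with the animal as a block in limma). An intron of the lysosomal protease gene Ctsb had 0.09, 1.69, 0 and 0, against 1.71, 4.08, 2.07 and 1.15 (difference -1.81). Lower too was the start of Trem2, a lipid-sensing receptor, with 0.63, 1.37, 0 and 0, against 2.09, 2.73, 1.15 and 1.65 (difference -1.41). In all 3 regions the LPSx2 and media values overlapped.

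Counted per gene, the number of peaks nearest to a protein-coding gene differed for few genes. Of 9085 genes, 18 (0.198%) had more peaks and 7 (0.0771%) fewer after LPSx2 by limma, and 1202 had an unadjusted p under 0.05. Because whole numbers repeat, 530 genes had no spread left in this fit, among them 4 of the 25 called, whose p-values have no meaning. Without those 530, 11 genes were higher and 7 lower, of which 13 were also called with them. Further gene fits tried after the values were seen gave 18 and 12 with a mean of at least 1 peak, 9 and 8 with at least 2, and 44 and 9 on a square-root scale, so which genes pass depends on the fit.

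Called both ways, Tgds had 2, 3, 3 and 3 peaks in LPSx2 animals 2, 3, 5 and 8, against 0, 0, 1 and 1 in media (difference 2.25, SE 0.35, limma adjusted p = 0.0126). Rims3, a presynaptic scaffold gene, had 3, 3, 2 and 2 peaks, against 0, 1, 0 and 0 (difference 2.25). Hsd11b1, which activates glucocorticoids, had 2 in every LPSx2 library, against 0, 0, 1 and 1 (difference 1.5), and Gja1, the gap junction protein connexin 43, had 1, 2, 2 and 2, against 0, 0, 1 and 0. Among genes with fewer peaks, Adtrp had 0, 2, 0 and 0, against 3, 4, 3 and 2 (difference -2.50), and Hcar2, a receptor for hydroxybutyrate and niacin, had 0, 1, 0 and 0, against 2 in every media library (difference -1.75). Rgs19, a regulator of G-protein signalling, had 0, 1, 0 and 1, against 1, 3, 2 and 2 (difference -1.5). With unshortened lists the sign turned for Adtrp (difference 0.25) and Hcar2 (0.75), and with the animal as a block Hcar2 had an adjusted p of 0.101.

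The BTBR response was set beside that of the C57BL6/J libraries, which shared no library with it. The differences of the 332 higher regions had the same sign in C57BL6/J for 290, with 37 at 0 and 5 of opposite sign, and those of the 313 lower regions for 285, with 15 at 0 and 13 opposite. The share of all tested regions with the same sign in both strains was not counted, so these counts stand without a background. In C57BL6/J itself 1334 of the 25513 regions (5.23%) were called higher and 1404 (5.5%) lower. Of the regions higher in BTBR, 156 were among these, 47.0% of the BTBR set and 11.7% of the C57BL6/J set, and of the lower regions 82, which is 26.2% and 5.84%. The median difference in C57BL6/J was 1.54 over the regions higher in BTBR and -0.73 over the lower ones, beside 1.84 and -1.51 in BTBR, the values that chose them.

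**Figure D5:**
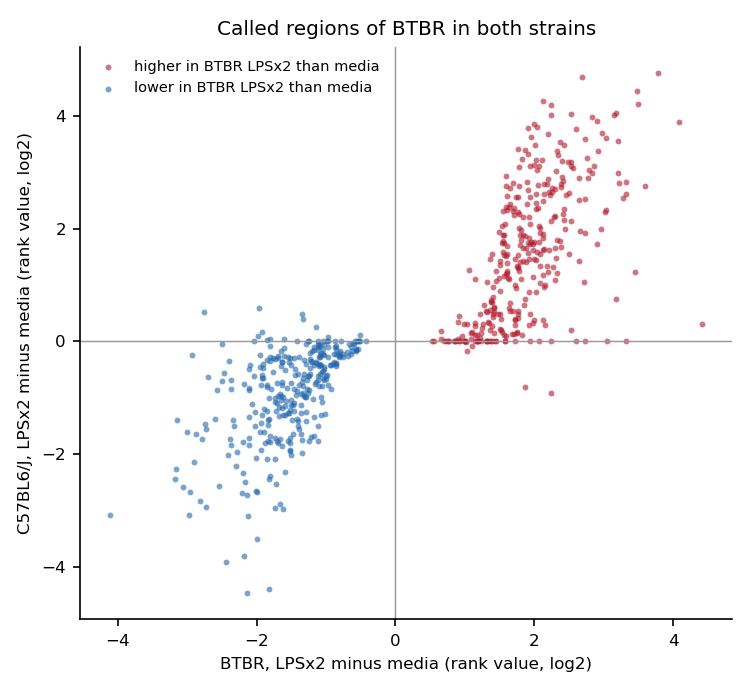
Difference in rank value, LPSx2 minus media, in BTBR (horizontal) and in C57BL6/J (vertical) for the 332 regions higher (red) and 313 lower (blue) in BTBR LPSx2. The split along the horizontal axis follows from the choice of regions. On the vertical axis 290 red points lie above 0 and 285 blue points below it, without a background share over all tested regions.

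A test of the strain difference itself, BTBR response minus C57BL6/J response, called 11 regions (0.0431%), 8 positive and 3 negative, with 2211 at an unadjusted p under 0.05, and 1 gene (0.011%), which had no spread in the fit. Of these regions, the one at the start of Stag3, a cohesin subunit of germ cells, was also called in BTBR (difference 2.24, limma adjusted p = 0.00214), beside a difference of -0.91 in C57BL6/J. The other 10 were not called between LPSx2 and media in BTBR. The promoter of C1qb, a complement subunit, at chr4:136886028-136886371 was at 0 in all 8 BTBR libraries, while C57BL6/J averaged 0.07 in LPSx2 and 3.45 in media (interaction 3.38, SE 0.47, limma adjusted p = 0.000348). An intronic region of Irak4, nearest to the start of Twf1, at chr15:94574944-94575236 was likewise at 0 in all 8, while C57BL6/J averaged 3.37 in LPSx2 and 0 in media (interaction -3.37, limma adjusted p = 0.0447). Socs3, higher in BTBR by 3.18, differed by 0.76 in C57BL6/J, and the interaction of 2.42 did not pass (SE 0.70, limma adjusted p = 0.248).

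For motif shares, the treatment difference per animal was 1.46 to 2.57 points in BTBR and 0.06 to 0.47 in C57BL6/J for NF-kB, and 4.50 to 5.59 in BTBR and 6.92 to 9.03 in C57BL6/J for AP-1. For C/EBP it was -1.51 to 0.82 in BTBR and 1.76 to 6.56 in C57BL6/J. The strains did not overlap in any of the 3, each with an exact permutation p of 0.0571, the smallest that 4 animals against 3 allow, and 0.305 after adjustment over 16 motifs.

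One and 2 doses used the same media libraries, so their values stand side by side only. Against media, LPSx1 called 256 regions higher and 294 lower. The Socs3 region differed from media by 3.18 after LPSx2 and 1.78 after LPSx1, the Maml2 region by 2.91 and 2.26, the Notch2 region by 2.97 and 1.68, and the Inpp5d region by 1.501 and 0.40. Other regions differed as much or more after LPSx1: Parp14 by 1.77 and 2.57, Uck2 by 2.69 and 2.89, and Kctd12 by 3.21 and 3.15. Median differences were 1.84 after LPSx2 and 1.35 after LPSx1 over the higher regions, and -1.51 and -1.25 over the lower ones. The LPSx2 values chose these regions. For Gbp7 the differences were -2.93 after LPSx2 and -2.52 after LPSx1, for Mef2c -2.72 and -2.97, and for the distal Klf4 region -2.79 in both. AP-1 was in 30.7%, 27.3%, 28.4% and 27.4% of distal peaks in LPSx1 animals 2, 3, 5 and 8, each above the LPSx2 library of the same animal. Mean shares after LPSx2, LPSx1 and media were 25.5%, 28.5% and 20.6% for AP-1. They were 5.37%, 5.04% and 3.49% for NF-kB, and 15.3%, 15.9% and 13.4% for ARE.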

How the data were processed

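The series holds ATAC-seq peak lists of 24 libraries, of which the 4 BTBR LPSx2 and 4 BTBR media libraries are described. Per the labels' protocols, libraries were sequenced as 50 bp paired ends on 4 lanes and peaks were called in each replicate with HOMER at a false discovery rate of 0.01 on mm10, from nucleosome-free fragments under 147 bp. The submitters' processing notes name Trimmomatic 0.38, SAMtools 1.8, Picard 2.18.4, HOMER and bedtools; the aligner is not given in the sources used here. The deposited lists hold a peak score per peak, given by the authors' caller, in steps of 0.5. They hold no read numbers, so depth is unknown and no count model was run.

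From the lists, overlapping peaks were merged into the strongest. In BTBR, 41.6% and 44.6% of the LPSx2 and media lists of animal 3 went this way, and almost none in animals 2, 5 and 8. In C57BL6/J these shares were 42.9% and 33.4% for animal 1 and 42.5% and 43.1% for animal 4, with almost none for animal 7. Lists with many overlaps were thus unevenly spread over the 2 strains. Apart from the run with peaks not collapsed, what this did to the strain comparisons was not tested. Of the C57BL6/J lists, 2 under 5000 peaks were left out, and each list was cut to the shortest of its lane. Regions found in at least 4 of 22 libraries were tested with limma 3.58.1 (trend, robust; R 4.3.3) on rank values over all 6 groups, with lane as a covariate; a region can pass this filter through 1 group alone. Peak numbers per gene were tested likewise where they averaged 0.5 or more, each peak going to the nearest protein-coding TSS within 100 kb. Motif shares over 16 motifs used exact permutation tests. Adjusted p under 0.05 was the threshold, by Benjamini-Hochberg over all features. Both fits were tested on simulated data, whose spread, sizes and levels were revised after a first version recovered little. In the simulation, calls had the right sign and few were false. Small changes, most decreases and changes in genes with few peaks were missed, so a feature that did not pass may still differ. The simulated libraries were drawn independently, with no effect shared within an animal and no cutting of lists. The share of false calls among the real ones therefore cannot be read from them. Sequences and annotation are of GRCm38.

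The same animals gave both treatments, per the labels, and same-animal deviations correlated at 0.38 to 0.64 over genes and 0.22 to 0.53 over regions. Over genes, every animal correlated more with itself than with any other animal. Over regions this held for animals 3 and 8 only. There the own and the highest other correlation were 0.217 and 0.277 for animal 2, and 0.360 and 0.395 for animal 5. The pairing thus rests on the labels, and the region values did not single it out in every animal. Within BTBR, animal and lane cannot be told apart. Limma p-values rest on a spread pooled over the 22 libraries of both strains and all 6 groups (13 residual degrees of freedom), with lane and not animal in the model; the permutation tests rest on the 4 animals. Named regions are the 8 with the lowest p among those in 4 of 4 lists of one group and 0 of 4 of the other, plus every called region of the listed genes; 1 of these regions and 1 marker gene are not reported here. Named genes are called ones with the same sign in all 4 animals, of which a few are given. The members, gene lists and tests were chosen with earlier results of these data known.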

Additional observations from a re-analysis of the deposited data

Results flagged for a closer look

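The LPSx2 list of animal 2, with 127242 peaks after merging, stood apart from the other 3 LPSx2 lists, which had at most 33340. A gap this wide, read on peak numbers and not on their log2, arises by chance in about 1 of 20 groups. The LPSx1 and media lists of animal 2, with 112429 and 63125 peaks after merging, were also the longest of their BTBR groups.

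In 11 regions the chromatin had a response to LPSx2 that differed between BTBR and C57BL6/J by limma's interaction term (BTBR minus C57BL6/J, log2 rank value). Positive ones lay near Hnrnpul2 (4.81), Myl12b (3.51), C1qb (3.38), Stag3 (3.16), Ubap2l (2.87), Srrm1 (2.67), Pdgfrl (2.62) and Sfxn3 (1.92). Negative ones lay near Twf1 (-3.37), Chst11 (-2.997) and Gvin1 (-2.80). The regions near C1qb, Myl12b, Pdgfrl and Twf1 were in no BTBR LPSx2 or media list, so in them the difference rests on the C57BL6/J libraries alone. With the animal as a block, the Hnrnpul2 region had an adjusted p of 0.102.

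Gpr176, an orphan receptor gene, had a strain difference of 1 peak, with 1 peak in every BTBR LPSx2 library and 0 in every BTBR media library, against a mean of 1.00 in both C57BL6/J groups. It was 1 of the genes with no spread in the fit, and no gene passed once those were left out.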

How the results depend on the processing

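Motif shares of AP-1, NF-kB and ARE kept their direction in every alternative run. With lists cut within an animal or not cut, however, their exact permutation p was 0.114 to 0.257. For NF-kB the exact p was 0.0571 with another order of ties, peaks not collapsed or the stronger 50%. For ARE it was 0.0571 in the stronger 50%. Called regions and genes did not keep their number. Higher and lower regions, 332 and 313, were 204 and 172 in the 12 BTBR libraries alone, 64 and 58 in the stronger 50% of each list, and 108 and 35 with the 8 lists cut to the shortest. Lower regions numbered 121 by detection alone, and higher ones 166 without replicates 5 and 8. No lane covariate gave 22 and 29, lists cut within an animal 12 and 9, and lists not cut 14 and 5. Leaving out 1 animal gave 74 to 529 higher and 76 to 305 lower regions. Regions gained and lost, 0.614% and 0.36% of the regions in any of the 8 lists, became 2.34% and 1.69% at 3 of 4, 0.549% and 0.245% in the stronger 50%, 1.08% gained with peaks not collapsed, 0.0411% lost with lists cut within an animal, 0.669% lost with the 8 lists cut to the shortest, 0.000762% lost (1 region) with lists not cut, and 2.92% and 2.91% without replicates 5 and 8; leaving out 1 animal gave 0.931% to 1.76% and 0.685% to 1.19%. Strain-difference regions, 11, were 44 by detection alone, 3 in the stronger 50% or with peaks not collapsed, 2 without the robust option, 1 with no lane covariate, an overlap of 100 bp, the animal cut with the block or without replicates 5 and 8, 0 with lists cut within an animal or not cut, and 1 to 3 without 1 animal.

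Genes higher and lower, 18 and 7, were 9 and 3 in the 12 BTBR libraries or with peaks not collapsed, 0 and 0 with lists cut within an animal or not cut, 11 and 3 with TSS within 25 kb, 71 and 16 with distal peaks, 55 and 81 with the 8 lists cut to the shortest, and 4 to 58 and 1 to 28 without 1 BTBR animal. Lower genes were 1 without the lane covariate, 15 without the filter, and 4 without C57 replicate 4 or 7. Fits tried after seeing the data gave 11 and 7 without genes of no residual spread, 18 and 12 when these also needed a mean of 1 peak, 9 and 8 with 2 peaks, and 44 and 9 on a square-root scale. The 1 strain-difference gene became 2 with the block, 4 without the filter, 3 on the square-root scale, 9 without replicates 5 and 8, 1 to 5 without 1 BTBR animal, 1 to 8 without 1 C57 animal, and 0 in the remaining alternatives that moved it.

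Signs turned for some motif shares. Without replicates 5 and 8 the differences were CRE 0.1254, STAT 0.0141, C/EBP -0.585, SP/KLF 0.0968, NRF1 0.0220, AhR 0.0751 and EGR 0.0315 points. All peaks gave ISRE 0.0217 and RUNX 1.00, and the stronger 50% gave STAT 0.169. AhR was 0.0352, 0.0181, 0.00811 and 0.0102 with the 8 lists cut, lists not cut, peaks not collapsed and the narrower window, which gave C/EBP -0.253. Leaving out 1 animal gave CRE -0.149 to 0.0164, C/EBP -0.196 to 0.582, AhR -0.0355 to 0.0709, EGR -0.0502 to 0.000277, and log2 list length -0.25 to 0.33. With lists not cut Adtrp was 0.25, Hcar2 0.75 and Atp8b1 0.25; with the animal cut, with or without the block, Gpr176 was -0.25. The cause of these changes was not tested.

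With the replicate block, the animal in place of the lane, 281 regions were higher and 273 lower. Of 62 named regions, 10 lost the call with the block, 55 with lists cut within an animal and 53 with lists not cut. Of the 25 called genes, 6 lost the call with the block. None of the 25 kept it with lists cut within an animal or not cut. With the block, Cd300a (0.0405) and Syngr1 (0.0495) gained the call as genes by limma adjusted p. The alternatives without replicates 5 and 8, without C57 replicates, with another order of ties, without the robust option, with the animal cut and the block, with regions also in C57BL6/J, and those on genes without spread or on the square-root scale were chosen after seeing the data. Read depth is unknown, so what was not in a list may have been missed.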
